A study of Mus musculus with 3 samples.

Results

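The genes described here encode the proteins that mark and license origins of DNA replication, build the replicative helicase, and copy DNA at the fork. They were chosen by name, with no measured value used, as the subunits of the origin recognition complex, the MCM2-7 helicase, GINS, the DNA polymerases alpha, delta, and epsilon, replication factor C, and replication protein A, together with *Cdc6*, *Cdt1*, *Gmnn*, *Cdc45*, *Mcm10*, *Pcna*, *Fen1*, and *Lig1*. Earlier results of these data were known when the genes were chosen. All 41 were present among the 55421 named genes of the table. They were measured in ALSCs, stem cells grown from epiblasts of mouse embryos at embryonic day 6.5 (an ICR mother and a GOF/GFP father) in serum-free N2B27 medium on fibronectin to which Activin A (20 ng/ml) and LIF (1000 U/ml) were added. The series holds 3 RNA-seq libraries of this 1 condition, named here replicates 1, 2, and 3. GOF/GFP is a green fluorescent reporter driven by part of the *Oct4* promoter region. The study calls the replicates of its RNA-seq biological, and the labels do not say whether these libraries came from separate cultures or lines. The count columns are headed EPI_AL with the replicate's number and were taken as the ALSCs, because the labels give no other sample and describe cells from epiblasts. The study also moved EpiSCs into the same medium under the name epiALSCs, which its transcriptome methods do not mention, so the match of columns to ALSCs rests on the headers and labels alone.

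Replication is prepared in the G1 phase, when the origin recognition complex (ORC) binds DNA and, with CDC6 and CDT1, loads pairs of MCM2-7 rings. Geminin binds CDT1 and prevents a second loading in S phase. When CDC45 and GINS join the ring the active helicase forms, polymerase alpha with primase starts each strand, replication factor C (RFC) loads the clamp PCNA, and polymerases epsilon and delta extend the strands while FEN1 and LIG1 finish the Okazaki fragments. Genes of this kind are transcribed mainly around the entry into S phase, and pluripotent cells spend much of their short cycle in that phase.

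The libraries held between 18037342 and 18724038 counts on named genes. Levels are given as FPKM, the count per 1 kb of gene length after each library is scaled to a total of 1000000 counts, and as mean ± SD of the 3 libraries. The epiblast markers *Pou5f1*, *Sox2*, and *Nanog* lay between 115 and 676 FPKM in every library, and all 6 epiblast markers were above 1 FPKM, the lowest being *Fgf5* with 3.89 ± 0.0503 FPKM. By contrast, 4 of 6 fibroblast markers and all 3 trophoblast markers had at most 3 counts in each library, and of the other fibroblast markers *Col1a1* had 5.04 ± 1.11 FPKM. Of the 4 markers of extraembryonic endoderm, none reached 1 FPKM, and the highest, *Sox17*, had 0.268 ± 0.0299 FPKM. A lower share of cells in S phase and less RNA per cell cannot be told apart in such bulk libraries.

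All 41 genes had at least 5 FPKM in every library, and 35 had at least 10 FPKM. Over all named genes, 20.1% reached 1 FPKM in all libraries and 8.09% reached 10 FPKM. The mean levels of the replication genes ran from 5.79 FPKM for *Fen1* to 221 FPKM for *Pcna*, with a median of 31.1 FPKM. The median over the 11125 genes at or above 1 FPKM was 8.21 FPKM, and 38 of the 41 lay above it. The genes together made up 0.747%, 0.745%, and 0.747% of all counts in the 3 libraries, so their summed share was nearly the same in each library. When the genes of each complex were put in order of level, 5 of 30 pairs of neighbours had overlapping ranges over the libraries, and the other pairs kept their order in every library. In the order over all complexes, 29 of 40 pairs of neighbours overlapped.

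**Figure D1:**
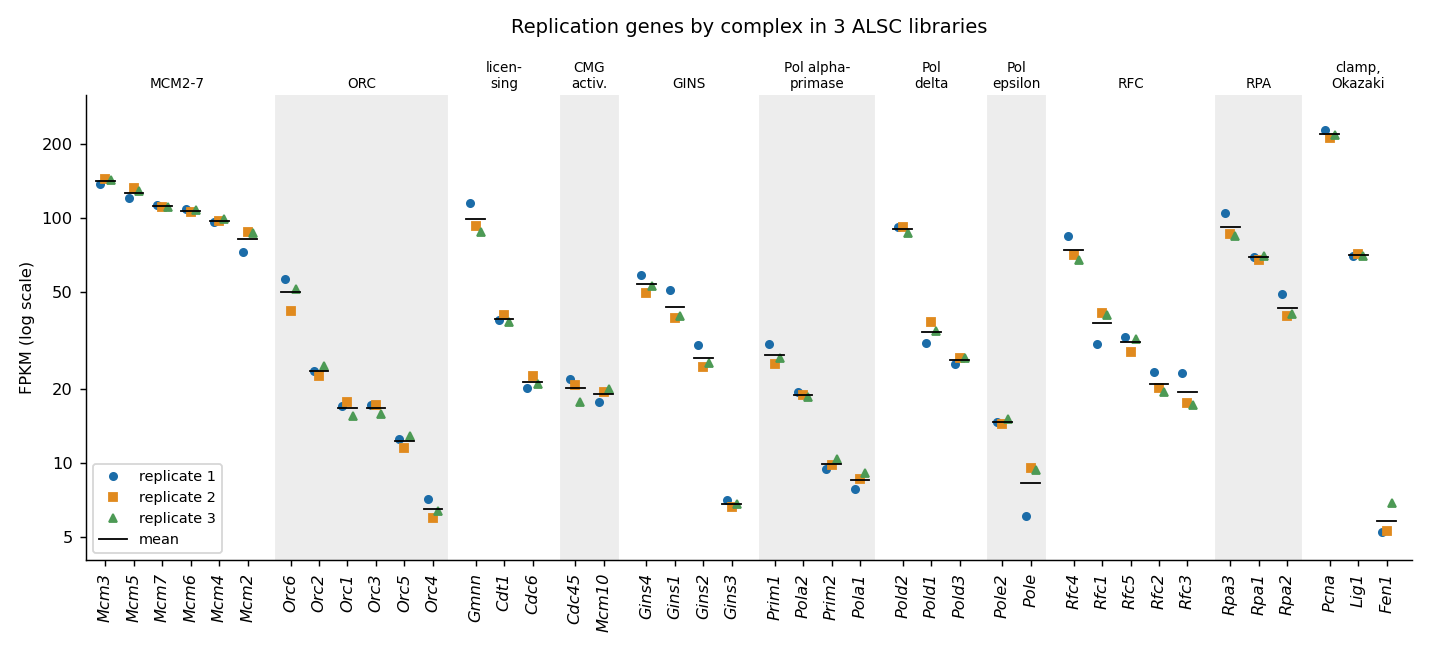
FPKM (log axis) of each replication gene in the 3 ALSC libraries, grouped by complex and ordered by mean within each. Points are libraries and the black line is their mean. The 6 *Mcm2* to *Mcm7* genes lie between 73.0 and 144 FPKM, while the ORC genes span from 5.94 to 56.7 FPKM and *Pcna* stands highest.

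The 6 subunits of the MCM2-7 ring, the motor of the helicase, were all high and close to each other. *Mcm3*, the highest, had 138, 144, and 144 FPKM in replicates 1, 2, and 3 (142 ± 3.23). *Mcm2*, the lowest, had 73.0, 87.6, and 86.6 FPKM (82.4 ± 8.16). The ratio of *Mcm3* to *Mcm2* was 1.73 ± 0.140 and was largest in replicate 1. Between them stood *Mcm5* (127 ± 6.003), *Mcm7* (112 ± 1.32), *Mcm6* (107 ± 1.48), and *Mcm4* (97.5 ± 1.68), and no neighbours in this order overlapped. The order depended on the length used for the scale, because the table's length is the sum of all annotated exons of a gene. With the length of the longest coding transcript, *Mcm3* had 176 FPKM, *Mcm2* 170 FPKM, and *Mcm4*, at 97.5 FPKM, became the lowest.

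The ORC genes were lower and more spread than the MCM genes. *Orc6*, the smallest and most divergent subunit, was the highest with 56.7, 41.9, and 51.5 FPKM (50.02 ± 7.51). *Orc4* was the lowest with 7.12, 5.94, and 6.34 FPKM (6.47 ± 0.596), which put *Orc6* 7.71 ± 0.582 times above it. *Orc2* had 23.8 ± 1.15 FPKM, *Orc1* 16.8 ± 1.08, *Orc3* 16.8 ± 0.824, and *Orc5* 12.3 ± 0.712, and only *Orc1* and *Orc3* overlapped. The order of these genes also depended on the length. With the longest coding transcript, *Orc3* had 44.3 FPKM and *Orc5* 36.1, above *Orc2* at 25.8 and *Orc1* at 19.4. *Orc6* stayed the highest and *Orc4* the lowest. The median of the MCM2-7 genes was 6.48, 6.22, and 6.97 times the median of the ORC genes in the 3 libraries. *Orc6* was also the ORC gene with the largest gap between replicates 2 and 3, 0.32 on the log2 scale with replicate 3 higher.

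Among the licensing factors, the inhibitor was the most abundant transcript. *Gmnn*, which encodes geminin, had 116, 93.0, and 88.1 FPKM (98.9 ± 14.6). *Cdt1*, its target, had 38.4, 40.1, and 37.7 FPKM (38.7 ± 1.202), and *Cdc6*, the ATPase that recruits MCM2-7 with CDT1, had 20.3, 22.7, and 21.01 FPKM (21.4 ± 1.22). The ranges of the 3 genes did not overlap. *Gmnn* was 3.01, 2.32, and 2.34 times *Cdt1* in replicates 1, 2, and 3, and *Cdt1* was 1.82 ± 0.0654 times *Cdc6*. *Gmnc* and *Mcidas*, relatives of geminin that drive multiciliated cells, had at most 7 and 3 counts in a library and were near or under the limit of 3 counts that a count of 0 allows.

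The factors that turn the loaded ring into a helicase were lower than the ring itself. *Cdc45* had 22.0, 20.9, and 17.7 FPKM (20.2 ± 2.19), and *Mcm10*, which acts when the helicase is switched on, had 17.8, 19.4, and 19.99 FPKM (19.1 ± 1.14). Their ranges overlapped. Of the GINS genes, *Gins4* had 58.6, 49.6, and 52.9 FPKM (53.7 ± 4.53) and *Gins3* had 7.04, 6.60, and 6.79 FPKM (6.81 ± 0.219). This 7.87 ± 0.411-fold difference between subunits that enter the complex in equal numbers was larger than the 1.24-fold step from *Gins4* to *Gins1* (43.3 ± 6.69), whose ranges overlapped. *Gins2* lay between *Gins1* and *Gins3* at 27.0 ± 3.02 FPKM. Of the exonic bases of *Gins2* (chr8:120578633-120589304, GRCm38, minus strand), 67.3% also belong to exons of *Gse1* on the other strand, and with the remaining bases as its length *Gins2* had 82.5 ± 9.23 FPKM and became the highest GINS gene.

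In the complex of polymerase alpha and primase, *Prim1*, the catalytic primase subunit, was the highest with 30.5, 25.4, and 26.7 FPKM (27.5 ± 2.61). *Pola1*, the catalytic polymerase subunit, was the lowest with 7.84, 8.56, and 9.11 FPKM (8.504 ± 0.636). The ratio was 3.89 in replicate 1 and 2.97 and 2.93 in the others. *Pola2* had 19.0 ± 0.424 FPKM and *Prim2* 9.92 ± 0.471. With the longest coding transcript the order was the same but the gaps differed. *Prim1* then had 67.3 FPKM, *Pola2* 64.9, *Prim2* 29.8, and *Pola1* 14.0.

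In both replicative polymerases the catalytic subunit was lower than the second subunit. For polymerase delta, *Pold2* had 92.3, 91.6, and 86.9 FPKM (90.3 ± 2.96), 2.65 ± 0.300 times *Pold1*, the catalytic subunit (34.3 ± 3.34). *Pold3* was the lowest with 25.4, 26.8, and 26.8 FPKM (26.3 ± 0.822). For polymerase epsilon, *Pole2* had 14.6, 14.4, and 15.1 FPKM, a mean of 14.7 ± 0.370, and *Pole*, the catalytic subunit, had 6.09, 9.51, and 9.31 FPKM (8.31 ± 1.92). *Pole* had the largest coefficient of variation of the 41 genes, 23.1%, and it was replicate 1 that stood below the other libraries.

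The other subunits of these polymerases were taken from the list of further fork and origin genes. *Pole3* and *Pole4*, small histone-fold subunits of polymerase epsilon, had 27.5 ± 2.12 and 22.8 ± 1.68 FPKM. *Pold4*, the smallest subunit of polymerase delta, had 4, 5, and 3 counts, or 0.187 ± 0.0433 FPKM, and 75.4% of its exonic bases lie outside other genes. It was near the limit of 3 counts, while *Pold3* had 2110 counts or more in each library.

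Of the clamp loader genes, *Rfc4* had 84.2, 71.0, and 67.7 FPKM (74.3 ± 8.69) and *Rfc3* had 23.3, 17.6, and 17.3 FPKM (19.4 ± 3.38). Replicate 1 was the highest library for both, and *Rfc4* was 3.61, 4.04, and 3.91 times *Rfc3*. *Rfc1*, the large subunit, had 30.6, 41.1, and 40.3 FPKM (37.3 ± 5.84) and was the only one of the 5 that was lowest in replicate 1. *Rfc5* had 31.1 ± 2.43 FPKM and *Rfc2* 21.1 ± 2.12 FPKM. With the longest coding transcript as the length, the ratio of *Rfc4* to *Rfc3* was 1.68. On that scale *Rfc2* was the lowest of the 5, at 26.6 FPKM. The lengths of *Rfc4* and *Rfc3* in the table were 1533 and 3611 bases and the coding transcripts were 1279 and 1317 bases. The genes of replication protein A, the protein that coats single-stranded DNA, were all high. *Rpa3* had 105, 86.4, and 84.4 FPKM (92.0 ± 11.4), *Rpa2* had 48.8, 39.7, and 40.6 FPKM (43.0 ± 5.03), and *Rpa1* had 69.2 ± 1.26 FPKM.

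*Pcna*, the clamp, was the highest of all with 230.2, 212, and 219.6 FPKM (221 ± 9.03). *Lig1*, the ligase that seals Okazaki fragments, had 69.8, 71.5, and 70.0 FPKM (70.4 ± 0.928). *Fen1*, the nuclease that trims them, had 5.23, 5.29, and 6.84 FPKM (5.79 ± 0.915) and was the lowest of the 41 genes. *Pcna* was 3.13 ± 0.165 times *Lig1*, and *Lig1* was 12.4 ± 1.85 times *Fen1*.

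The low value of *Fen1* went with the widest overlap with another gene. *Fen1* lies at chr19:10199132-10204169 (GRCm38, minus strand), and 78.8% of its exonic bases are also exonic bases of *Gm10143*, a noncoding gene of the other strand. A further 5.37% belong to *Tmem258*. The table gives *Fen1* 229, 240, and 299 counts and *Gm10143* 12, 5, and 15 counts. No source says that strand was used in the counting, and the kit named in the labels does not mark strand, so reads from the shared bases cannot be assigned to one gene. With the 15.8% of its bases that no other gene shares as the length, *Fen1* had 33.1, 33.5, and 43.3 FPKM (36.6 ± 5.79), a value that assumes that no read of the shared bases was counted for it. Among all protein-coding genes, 6.99% of the 458 with under 35% of their exonic bases unshared reached 1 FPKM in all libraries, against 57.2% of the 3522 between these limits and 44.7% of the 17836 with at least 95% unshared, so that only the most overlapped class was low. The part of the overlap in the low value was not tested.

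In all, 16 of the 41 genes had exonic bases under another gene. On the scale of unshared length, *Fen1* rose 6.32-fold and *Gins2* 3.06-fold, *Orc2*, which shares 29.8% of its bases with *Nif3l1*, had 33.9 FPKM in place of 23.8, and the others moved by less than that. A copy elsewhere in the genome mattered for *Pcna* (chr2:132249162-132253314, minus strand). The processed pseudogene *Pcna-ps2* (chr19:9283380-9284160) shares 31.8% of the words of 50 bases in the longest coding transcript of *Pcna*. It had 4692, 3574, and 3518 counts, beside 9993, 9537, and 9506 for *Pcna*, and reads of such copies cannot be told apart where the sequence is the same. With the counts of both assigned to *Pcna*, its level was 338, 292, and 301 FPKM. *Mcm7* shares 26.0% of its words with the copy *Gm5487*, which had 39, 25, and 38 counts.

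**Figure D2:**
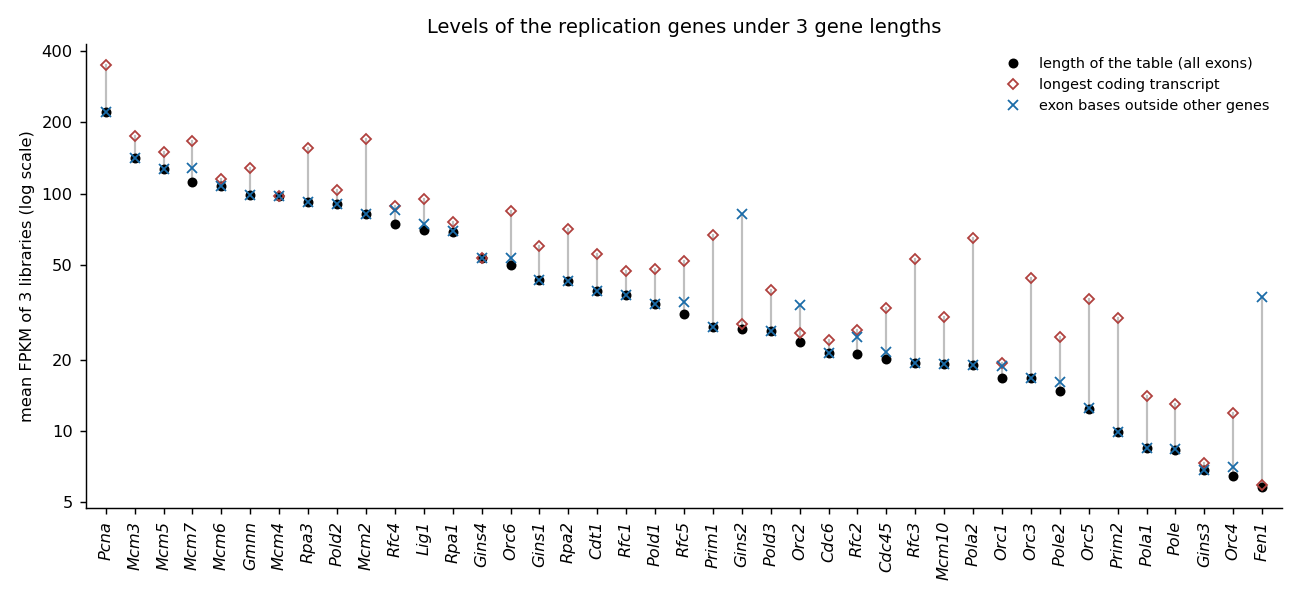
Mean FPKM of 3 libraries (log axis) for each replication gene with the length of the table (black points), of the longest coding transcript (open diamonds), and of the exon bases outside other genes (crosses). *Fen1* and *Gins2* move farthest with the unshared bases, to 36.6 and 82.5 FPKM, and the other genes that move far do so with the coding transcript.

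The coding transcript was shorter than the table's length for most genes, and the level on that scale was 1.43 times that on the table's length in the median and 3.43 times at most, for *Pola2*. All 41 genes were above 1 FPKM on each of these scales, which was certain because neither length exceeds the table's. Fold differences between libraries are the same on each scale.

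The promoters of the genes were then read for words known from genes of the cell cycle. E2F factors bind words such as TTTCCCGC, TTTGGCGC, TTTCGCGC, and TTTGCCGC, NF-Y binds CCAAT, and the CHR words TTTGAA and TTCGAA are read by the DREAM complex. Promoter sequences of 300 bases, from 250 before to 50 after an annotated start, were taken from RefSeq (GRCm38.p6) and were found for 33 of the 41 genes, several with more than 1 start, which gave 41 promoters. *Mcm4*, *Gmnn*, *Gins1*, *Gins2*, *Gins4*, *Prim2*, *Pole*, and *Rfc2* had no entry. Both strands were searched. An E2F word was present in 15 of the 41 promoters (36.6%), against 2.26% of 32851 promoters of all genes and 4.41% of the 10466 promoters of genes at or above 1 FPKM. By gene this was 15 of 33 (45.5%), against 2.60% of all genes. CCAAT was present in 56.1% of these promoters, in 37.4% of all, and in 38.4% of those of genes at or above 1 FPKM. For a CHR word the shares were 17.1%, 19.2%, and 13.5%, so that the replication genes lay between the 2 backgrounds. A match is a run of letters and does not show that a factor binds there.

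**Figure D3:**
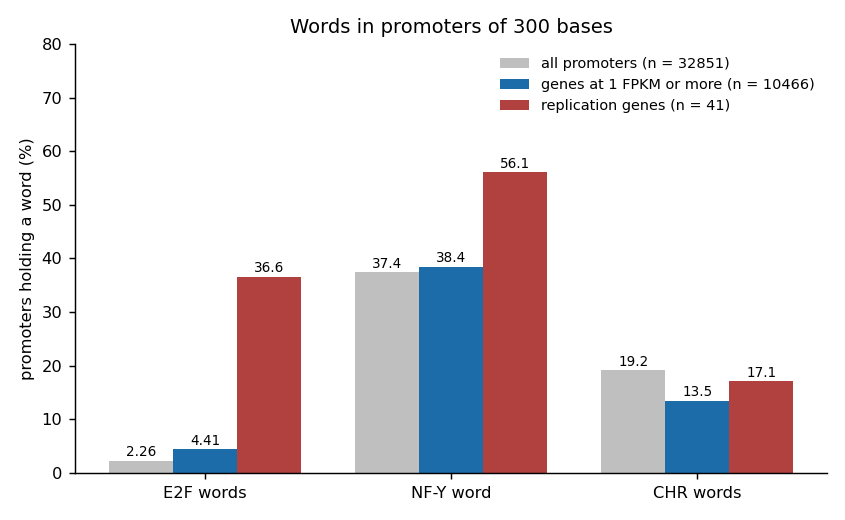
Share of promoters (%) that hold an E2F word, the word bound by NF-Y, or a CHR word, for all promoters (grey), promoters of genes at or above 1 FPKM (blue), and promoters of the replication genes (red). The E2F bars are 2.26%, 4.41%, and 36.6%.

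Several E2F words in 1 promoter were found mostly in the MCM genes, where 4 of the 5 genes with an entry held at least 2. Only *Rfc3* did so among the other genes with an entry. At least 2 E2F words were held by 12.2% of the promoters of the replication genes. The share was 0.0974% of all promoters and 0.229% of those of genes at or above 1 FPKM. The stretches below come from genes of the most abundant group and, for *Cdc6* and *Orc1*, from genes that load it, and not all hold an E2F word. Each gives the 180 bases before the start, 5′ to 3′ on the gene's strand, with E2F words (read as given or as GCGGGAAA, GCGCCAAA, and GCGCGAAA on the other strand) and CCAAT or ATTGG in capitals. They lie at chr8:75109329-75109508 (plus) for *Mcm5*, chr1:128359706-128359885 (minus) for *Mcm6*, chr5:138171884-138172063 (minus) for *Mcm7*, chr6:88898781-88898960 (minus) for *Mcm2*, chr11:98907971-98908150 (plus) for *Cdc6*, and chr4:108579274-108579453 (plus) for *Orc1*.
Mcm5: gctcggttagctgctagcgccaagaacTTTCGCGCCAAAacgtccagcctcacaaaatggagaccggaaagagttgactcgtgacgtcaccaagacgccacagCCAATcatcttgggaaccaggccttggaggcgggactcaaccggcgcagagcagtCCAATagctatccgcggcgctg
Mcm6: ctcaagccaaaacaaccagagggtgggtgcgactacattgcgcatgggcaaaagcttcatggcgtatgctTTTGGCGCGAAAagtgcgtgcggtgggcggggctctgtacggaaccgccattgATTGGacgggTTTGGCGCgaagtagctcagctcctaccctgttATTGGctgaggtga
Mcm7: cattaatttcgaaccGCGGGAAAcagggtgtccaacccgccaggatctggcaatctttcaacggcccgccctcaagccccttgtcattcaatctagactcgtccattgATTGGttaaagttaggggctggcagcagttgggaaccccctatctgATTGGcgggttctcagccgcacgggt
Mcm2: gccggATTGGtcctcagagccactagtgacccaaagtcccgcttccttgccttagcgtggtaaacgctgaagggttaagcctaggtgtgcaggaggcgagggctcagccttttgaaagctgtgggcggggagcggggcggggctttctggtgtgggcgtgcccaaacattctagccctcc
Cdc6: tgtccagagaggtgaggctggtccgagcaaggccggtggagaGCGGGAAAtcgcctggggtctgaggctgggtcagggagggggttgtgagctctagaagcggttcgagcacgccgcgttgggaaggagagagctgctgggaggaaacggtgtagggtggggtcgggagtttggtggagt
Orc1: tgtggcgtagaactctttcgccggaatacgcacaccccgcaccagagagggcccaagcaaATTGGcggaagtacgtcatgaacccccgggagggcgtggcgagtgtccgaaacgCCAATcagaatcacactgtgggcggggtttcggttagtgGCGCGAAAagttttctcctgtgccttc
In *Mcm5* and *Mcm6*, a pair of E2F words on opposite strands overlapped by 4 bases in 1 run of 12 capitals, and *Mcm6* held a further word nearer the start. *Mcm2* held none of the 4 words in this promoter, and *Orc1*, *Cdc6*, and *Mcm7* held 1 each in the bases shown. The other promoter of *Mcm7*, at chr5:138171217-138171516, held none. *Mcm3*, not shown, also held none in the 180 bases before its start, and its E2F words lay after the start. Whether the words go with the level of a gene was not tested.

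Because the 3 libraries are 1 condition, the only comparison among them is of the libraries themselves. Whether a gene's counts differed by more than counting error was put to a chi-square test of homogeneity, with library sizes scaled by edgeR's TMM factors, with Benjamini-Hochberg adjustment over all 16944 genes with at least 10 counts in total and a threshold of 0.05. It allows for no variation between cultures. All 41 genes passed the filter, and 31 (75.6%) varied, against 47.2% of all genes tested. Since deep genes are called more easily, the share among the 8407 genes with mean counts in the range of the 41 is the nearer background, and it was 69.5%. Without replicate 1 most of these calls were lost. Between replicates 2 and 3, 8 of the 41 genes differed, against 1302 of all 16062 genes tested (8.11%). The 8 were *Orc2*, *Orc5*, *Orc6*, *Cdc45*, *Rfc5*, *Rpa1*, *Pcna*, and *Fen1*. No share among genes in the same range of counts was computed for this pair, so whether 8 is many cannot be judged.

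On counts scaled by the TMM sizes, 23 of the 41 genes (56.1%) varied and were highest in replicate 1, against 22.2% of all genes tested and 33.8% of those in the same range of counts. Another 6 (14.6%) varied and were lowest there, against 22.1% and 33.4%. The 6 were *Mcm2*, *Mcm10*, *Pola1*, *Pold1*, *Pole*, and *Rfc1*, and for *Orc2* and *Fen1* the scaled count of replicate 1 lay between the others. In FPKM, which has no such scaling, *Fen1* was lowest in replicate 1, and *Orc1*, *Orc3*, *Orc5*, and *Rpa1*, which belong to the 23, were not highest there. The log2 difference of replicate 1 from the mean of replicates 2 and 3 had a median of 0.10 over the 41 genes and 0.01 over all genes tested. With library totals in place of TMM sizes, as in FPKM, the median over the 41 was 0.034. Its size was 0.13 in the median, against 0.23 over the genes in the same range of counts, so that the replication genes differed between libraries by small amounts. The largest values were 0.49 for *Rfc3*, 0.44 for *Gins1*, and 0.42 for *Gmnn*. The lowest were -0.56 for *Pole*, -0.34 for *Rfc1*, and -0.19 for *Mcm2*.

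Counts of these genes show the same split. *Gins1*, a short gene, had 1400, 1109, and 1091 counts, or 51.1, 39.1, and 39.9 FPKM (adjusted p = 2.56e-17, chi-square test). *Pole*, the longest of the 41, had 1230, 1987, and 1875 counts (adjusted p = 3.59e-30, chi-square test). *Rfc1* had 3331, 4628, and 4379 counts (adjusted p = 2.20e-29, chi-square test). In each case replicate 1 lay apart and replicates 2 and 3 were close to each other. *Mcm3*, *Cdc6*, *Cdt1*, *Lig1*, *Pold3*, and *Pole2* were among the 10 genes that did not pass, and for *Lig1* the counts were 5388, 5713, and 5388 (adjusted p = 0.1799, chi-square test).

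The difference of replicate 1 moved with gene length. Of the 12 genes of up to 3000 bases, 11 were higher in replicate 1, with a median of 0.31, and of the 13 genes over 5000 bases, 6 were higher and 7 lower, with a median of -0.02. Over the 10577 genes with at least 100 counts on average the medians of the same length classes were 0.27 and -0.22. Spearman's rho of the difference with length was -0.52 over the 41 genes and -0.64 over the 10577, where all points share the same 3 libraries. After the median trend on length was removed, the median over the 41 genes was 0.05, *Pole* was at -0.22 and *Rfc1* at -0.21, *Gmnn* was at 0.09, and *Rfc3* was at 0.42. Other genes moved farther from 0, and *Orc4* (0.49), *Rfc2* (0.46), and *Pola2* (0.37) had 0.28, 0.31, and 0.12 before. The size of the difference over the 41 genes fell only from 0.13 to 0.12 in the median. The cause of the trend was not tested.

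**Figure D4:**
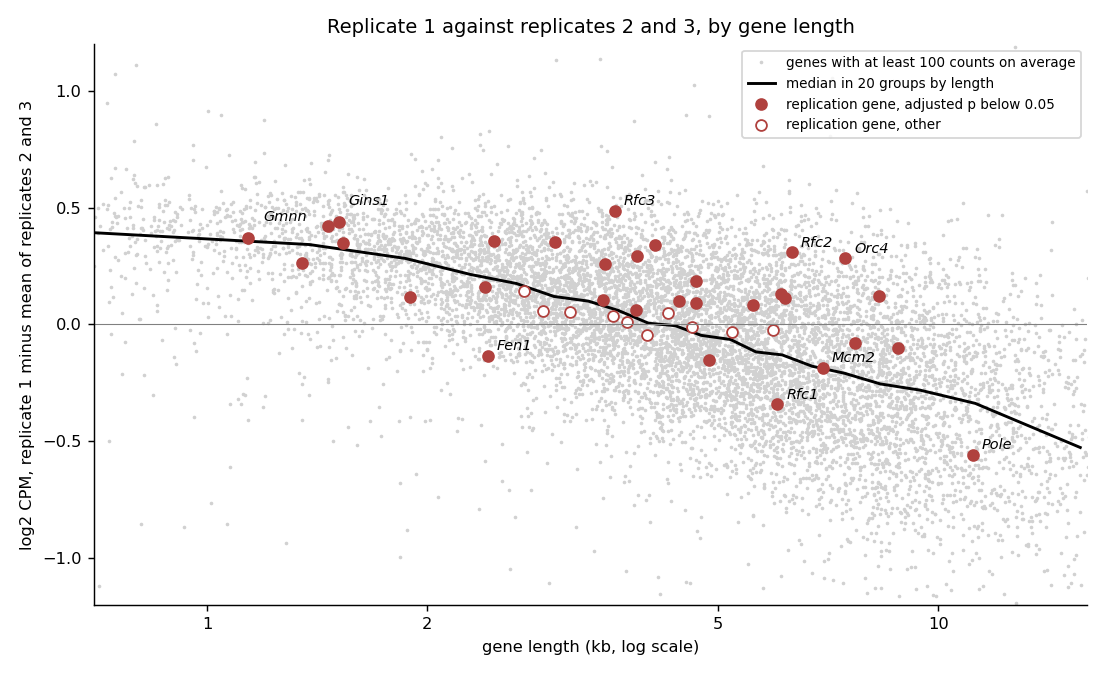
Log2 CPM of replicate 1 minus the mean of replicates 2 and 3 against gene length (log axis) for 10577 genes with at least 100 counts on average (grey, 559 of them beyond the axes), their median in 20 groups by length (line), and the 41 replication genes (red, filled where the chi-square test passed). The short *Gmnn* and *Gins1* lie above 0 near the line, and *Pole* lies at -0.56.

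Further genes of replication and its supply were read from lists. Of 31 other genes of the fork and origin, 29 reached 1 FPKM in all libraries and 19 reached 10 FPKM, with a median of 13.6 FPKM. The exceptions were *Pold4* and *Chtf8*, the latter with 8.23% of its exonic bases outside other genes and chosen for mention after its values were seen. *Top2a*, the topoisomerase that resolves replicated DNA, was the highest with 131, 174, and 169 FPKM. *Pclaf*, a PCNA-binding factor, had 59.5, 48.1, and 48.3 FPKM. *Dbf4*, the regulatory subunit of the kinase that fires origins, had 18.7 ± 0.379 FPKM and was 1.30 ± 0.114 times *Cdc7*, the catalytic subunit (14.4 ± 1.02). That ratio rests on table lengths of 8728 bases for *Dbf4* and 4183 for *Cdc7*, and no coding length was used for these lists. *Mcm8* and *Mcm9*, relatives of the ring that act in recombination, had 12.8 ± 0.696 and 1.63 ± 0.248 FPKM, both below the lowest MCM2-7 gene in every library. Counts varied between libraries for 24 of the 31, 14 of them lowest and 10 highest in replicate 1, beside 47.2% varied, 22.1% lowest, and 22.2% highest over all genes tested. Among genes with counts in the range of the replication genes these shares were 69.5%, 33.4%, and 33.8%.

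All 8 genes of histone chaperones that act at forks had at least 10 FPKM, from *Chaf1a*, the large subunit of CAF-1, with 11.7 ± 1.37 to *Nasp*, a carrier of histone H3 and H4, with 149.5 ± 5.76 FPKM. Of 10 genes of nucleotide supply, 9 reached 1 FPKM. *Dut*, the enzyme that removes dUTP, was the highest at 149.6 ± 19.5 FPKM. *Rrm2*, the small subunit of ribonucleotide reductase, had 114, 117, and 117 FPKM and was 3.78 ± 0.0671 times *Rrm1*, the large subunit (30.7 ± 0.833). The counts were similar, 5738, 6092, and 5833 for *Rrm2* and 5940, 6366, and 6250 for *Rrm1*. Their lengths in the table were 2771 and 11012 bases, so this ratio depends on the length, and no coding length was used here. *Rrm2b*, the small subunit known from p53 responses, was the lowest at 0.829, 1.01, and 1.09 FPKM. Of 13 genes of E2F factors and pocket proteins, 12 reached 1 FPKM, from *Tfdp1*, a partner of E2F, at 72.9 ± 1.87 to *Rbl2*, a pocket protein known from quiescent cells, at 0.285, 0.353, and 0.440 FPKM. In the last list 6 of the 13 genes varied, all of them lowest in replicate 1. Of all genes tested 22.1% varied and were lowest there, and 33.4% of those with counts in the range of the replication genes. The 6 had lengths from 4882 to 14029 bases, at which the median gene was lower in replicate 1 as well. With the length trend removed, *E2f6* was at -0.015 and *Tfdp2* at -0.0075, while *E2f2*, *E2f3*, *E2f7*, and *E2f8* lay between -0.39 and -0.31. In the chaperones 7 of 8 and in nucleotide supply 5 of 10 varied. The shares that varied were 47.2% of all genes tested and 69.5% in that range of counts.

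**Figure D5:**
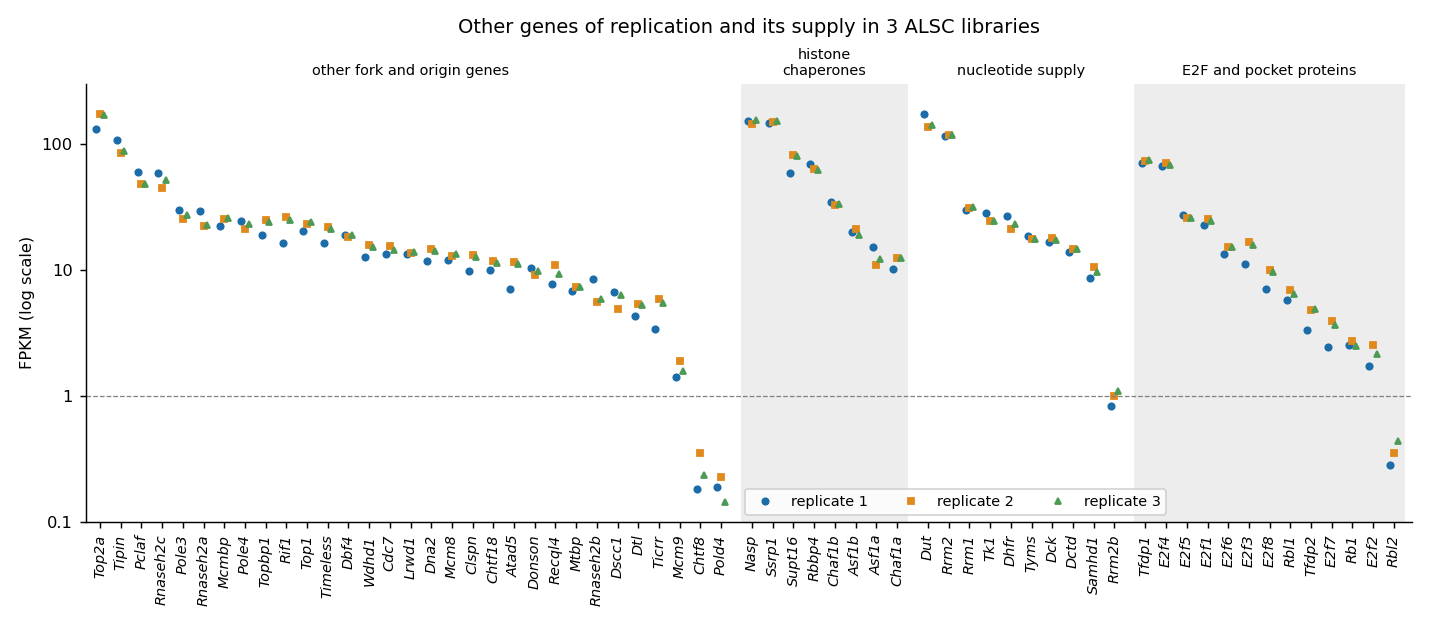
FPKM (log axis) of 62 genes of 4 further lists in the 3 ALSC libraries, ordered by mean within each list. Points are libraries and the dashed line marks 1 FPKM. *Chtf8*, *Pold4*, and *Rbl2* lie below the line in every library, and *Rrm2b* in replicate 1.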

How the data were processed

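RNA of 3 ALSC libraries was sequenced and mapped by the authors to GRCm38, and HISAT2 2.0.5 is named in the submitters' processing notes. The counting program is not given in the sources used here. The authors deposited raw counts per gene in 1 table with each gene's position and length. Its 3 other columns of per-sample counts match no sample of the series and were not used. The 317 rows without a gene name held 0.165% to 0.182% of counts and were left out. FPKM was computed from counts, the table's length, and the total on named genes. Library sizes were scaled with edgeR 4.0.16 (TMM), or DESeq2 1.42.0 as an alternative, in R 4.3.3. The chi-square test of homogeneity and all else were run with Python 3.11.15, NumPy 2.4.6, SciPy 1.17.1, and pandas 2.3.3, and the test was tested on simulated data. Log2 differences used a pseudocount of 0.5 counts. The test and the limit of 3 counts allow for counting error alone, and without molecular identifiers reads may be copies of 1 molecule.

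Shared exonic bases, coding transcripts, and 50-base words came from GENCODE M21, which gave the same position for 99.5% of 55154 shared genes and the same exon length for all 41 members. Members and lists were chosen with earlier results of these data known. Every member was named with its level, in full for the highest and lowest of each complex of 3 or more, for *Cdc6*, *Cdt1*, *Gmnn*, *Cdc45*, *Mcm10*, *Pcna*, *Fen1*, and *Lig1*, and for the 3 largest and 3 smallest log2 differences of replicate 1. Of other lists, the highest and lowest gene and a fixed set were named. Protein sequences were not analysed here. Alternatives covered library size, unit, length, thresholds, pseudocount, trends, and leaving out each replicate. The unshared length and the counts of *Pcna-ps2* added to *Pcna* were chosen after seeing the data.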

Additional observations from a re-analysis of the deposited data

Results flagged for a closer look

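*Pcna-ps2*, a processed pseudogene of *Pcna* that is not one of the replication genes, drew attention because it held 4692, 3574, and 3518 counts in replicates 1, 2, and 3, above the limit of 3 counts that a count of 0 allows. On its own length of 781 bases this was 275 ± 49.2 FPKM, and its share of the counts of both genes was 32.0%, 27.3%, and 27.0%. The second named copy, *Pcna-ps1*, had 0 counts in every library. Groups of 3 libraries were too small to be read for outlying samples.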

How the results depend on the processing

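The median level of 31.1 FPKM was 85.8 in TPM, 53.2 with the longest coding transcript as the length, and 36.6 with the unshared length. It moved by less than the spread of the libraries' medians with the other library sizes, with *Pcna-ps2* counts added to *Pcna*, and without any 1 replicate (30.3 to 32.5 FPKM). All 41 genes stayed above 1 FPKM with each library size and length tried and without any 1 replicate. Lengths and replicates could not have changed this. Neither alternative length exceeds the table's, and every gene had at least 5 FPKM in each library. On the table's length all 41 were also above 5 FPKM and 35 above 10 FPKM, and on the coding length 38 were above 10 FPKM. For the pair of subunits that was highest and lowest on the table's length, the ratio with the coding length was 1.04 for MCM2-7, 7.08 for ORC, 7.32 for GINS, 4.84 for polymerase alpha and primase, 2.64 for polymerase delta, 1.68 for RFC, and 2.19 for RPA. With the unshared length it was 4.41 for RFC, and none of these pairs changed direction. The highest and lowest subunit of each scale were other genes in MCM2-7 (*Mcm3* over *Mcm4*, 1.80), GINS (*Gins1* over *Gins3*, 8.25), and RFC (*Rfc4* over *Rfc2*, 3.35) with the coding length, and in GINS (*Gins2* over *Gins3*, 12.1) with the unshared length.

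The number of replication genes that varied between libraries was 28 to 32 with other library sizes, filters, and threshold. It was 8 to 28 without 1 replicate each, the 8 being without replicate 1. Of all genes tested, 47.2% varied with DESeq2 sizes and 47.5% with library totals. The share was 32.5% with no filter, 60.7% with at least 100 counts in total, and 38.3% at a threshold of 0.01. Without replicates 1, 2, and 3 in turn it was 8.11%, 42.9%, and 46.7%. The median log2 difference of replicate 1 was 0.034 with library totals in place of TMM sizes, and 0.05 to 0.12 in the other alternatives. Of single genes, the level moved by more than 1 SD with the coding length in 37 of 41 and with the unshared length in 10. It did so in none when a replicate was dropped. That last outcome was certain beforehand, because the SD of 3 values exceeds the shift that dropping 1 of them can give. No paired analysis was possible because all libraries belong to 1 condition. With 3 libraries the SD is itself imprecise, and depth limits the levels of genes near 3 counts, such as *Pold4*. Depth also bears on the chi-square calls, since deep genes are called more easily.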
